A study of Homo sapiens with 6 samples.

Results

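Expression of 9 genes of MHC class I antigen presentation was examined in HuCCT1/CD90+ and HuCCT1/CD90- cells. The genes were taken by symbol from a table of 20811 genes, and all 9 were found. They encode the classical heavy chains HLA-B and HLA-C, the non-classical heavy chains HLA-E and HLA-F, the light chain β2-microglobulin (B2M), both subunits of the peptide transporter (TAP1 and TAP2), and the immunoproteasome subunits PSMB8 and PSMB9. HuCCT1 is an established line of human intrahepatic cholangiocarcinoma. The lentivirus human THY1-CMV-GFP, which carries the gene of CD90, was used for HuCCT1/CD90+, and a blank lentivirus, Lenti-CMV-GFP-2A-Puro-Blank, for HuCCT1/CD90-. Both lines therefore carried a lentivirus with a CMV promoter and GFP, and both were grown in RPMI with serum. There were 3 libraries of each line, and the labels do not say whether a library stands for a separate culture or whether a line is a clone. The effect of THY1 and any other difference between these lines cannot be told apart, and p-values measure the spread between libraries, which may be technical.

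MHC class I molecules carry short peptides of the cell's own proteins to its surface, where CD8 T cells read them. The proteasome cuts the proteins, the TAP1/TAP2 heterodimer pumps the peptides into the endoplasmic reticulum, and a heavy chain folds there with β2-microglobulin around a peptide. Interferon-γ raises most genes of this route and replaces catalytic subunits of the proteasome by PSMB8, PSMB9 and PSMB10. Natural killer cells read the same molecules, and HLA-E in particular is seen by their inhibitory receptors. Loss of this pathway is a known way for carcinomas to escape T cells.

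Each gene was read from 1 amplicon of the Ion AmpliSeq Transcriptome panel, and values are RPM, reads scaled to the same total in every library. Each library held 8587634 to 10551516 reads, so that 3 reads, the detection floor used for a library, were 0.284 to 0.349 RPM. Because amplicons differ in yield, RPM was compared between libraries for a gene, and levels of different genes were not ranked. THY1 had 0, 1 and 0 reads in HuCCT1/CD90- and 435, 445 and 680 reads in HuCCT1/CD90+. Its mean in HuCCT1/CD90+, 57.4 RPM, was 178.9 times the largest floor of HuCCT1/CD90-, 0.321 RPM. Lower bounds on a fold, given below, likewise set the mean of the higher line against the largest floor of the other. The cholangiocyte keratins were abundant in both lines, with mean KRT19 levels of 3228 RPM (HuCCT1/CD90-) and 4146 RPM (HuCCT1/CD90+), whereas CFTR stayed under 2 RPM in every library. The leukocyte gene PTPRC had at most 1 read in any library, and 6 of 9 blood cell markers were at the floor in both lines. CD14 and LYZ of that list were lower in HuCCT1/CD90+ (LYZ with an adjusted p of 0.069 when the replicate number was a block), and the summed level of the 9 markers was 81.2 to 101 RPM in the blank line but 6.003 to 8.15 RPM in HuCCT1/CD90+. Most of that sum was CD14, with means of 80.9 and 4.32 RPM. CSF1R did not fall, with 0.727 and 1.11 RPM, and was not called. The 3 endothelial markers summed to 14.5 to 23.2 and 0.643 to 1.51 RPM, and the 4 fibroblast markers to 23.8 to 30.7 and 14.7 to 15.1 RPM. Most of the endothelial sum in HuCCT1/CD90- was CDH5, with means of 16.6 and 0.293 RPM. VWF had 0 reads in each HuCCT1/CD90- library and 1, 3 and 4 reads in HuCCT1/CD90+. Of the fibroblast markers COL1A1 had 13.5 and 14.2 RPM, while COL3A1, PDGFRB and DCN were called lower, PDGFRB from 5.49 to 0.697 RPM and DCN by at least 20.3-fold. COL3A1 and DCN lost their calls with the replicate number as a block (adjusted p = 0.10 and 0.086). The part of these genes in the results below was not tested. In bulk RNA, fewer cells of a type and less RNA per cell cannot be told apart.

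The members did not move together. TAP1 and PSMB9 were lower in HuCCT1/CD90+, 1.73-fold and 1.79-fold on the log2(RPM + 1) scale, while TAP2 was 1.44-fold higher. B2M, HLA-E and PSMB8 did not pass the test, and HLA-B, HLA-C and HLA-F had next to no reads in either line. A gene was called when its Benjamini-Hochberg adjusted p from limma, over all 20811 genes, was at most 0.05 and its fold change on the log2(RPM + 1) scale was at least 1.5. Called lower were 2 of the 9 members, beside 7.49% of all genes tested, and called higher were 0 of 9, beside 7.59%. Where the mean reached 10 RPM, 10.4% of genes were called lower, 11.3% higher and 21.7% either way. With an unadjusted p of at most 0.05 in place of the adjusted p, as the study's rule has it, the counts stayed at 2 lower, beside 9.98%, and 0 higher, beside 10.1%, or 2 either way, beside 20.1%. By the adjusted p alone 2 members were lower, beside 9.52%, and 1 was higher, beside 9.41%, or 3 either way, beside 18.9%. edgeR called 2 members lower, beside 17.3% of the genes it tested, and 0 higher, beside 17.5%, and DESeq2 called 2 lower, beside 14.3%, and 0 higher, beside 15.1%. At an unadjusted p of at most 0.05 and any fold, 2 members were lower, beside 15.9%, and 1, TAP2, was higher, beside 15.3%. With the replicate number as a block, limma called 1 member lower, beside 4.86%, and 0 higher, beside 5.24%. The libraries of both lines did not overlap for 3 of the 9 members, beside 35.0% of the table. Over the 9 members the median log2 fold change was 0.03, or -0.11 over the 7 that were above the floor, and over all genes it was 0.

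**Figure D1:**
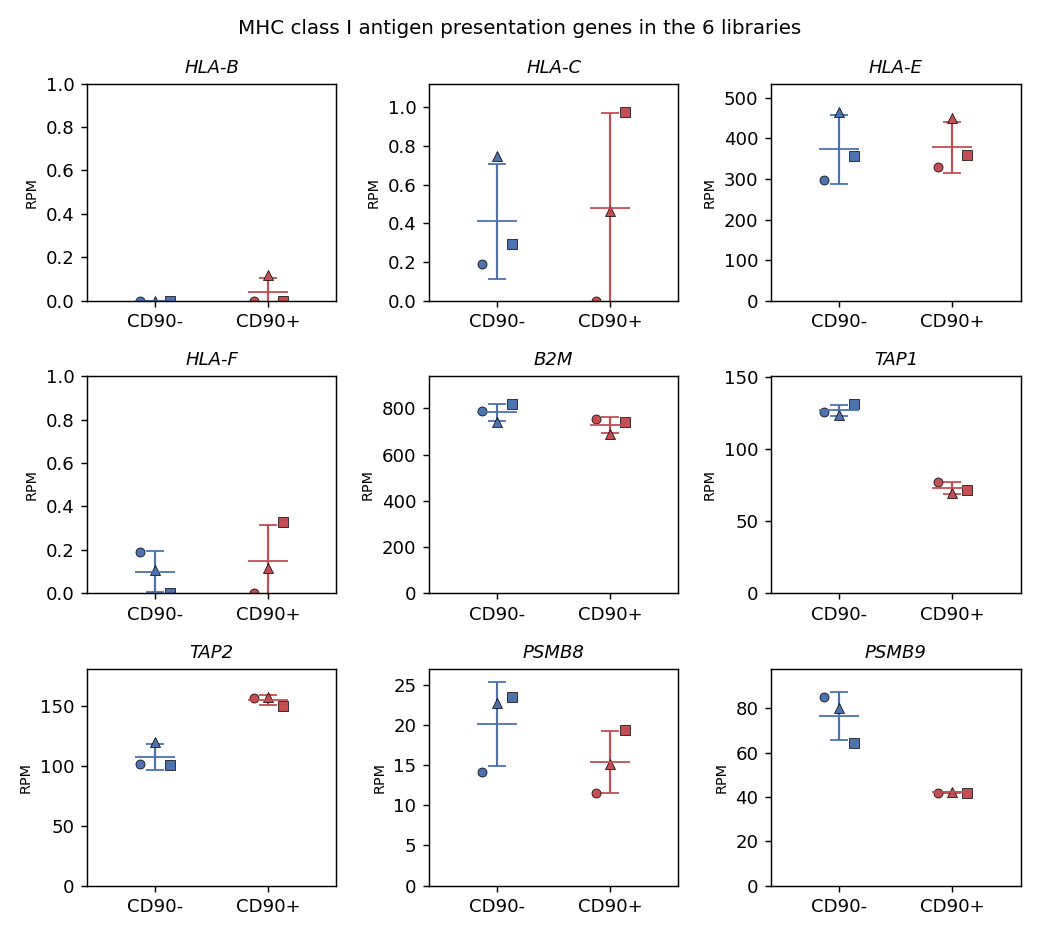
RPM of the 9 members in each library, with a panel and a vertical axis from 0 for each gene. Circles, triangles and squares are replicates 1, 2 and 3, and horizontal marks with bars are the mean and SD (n = 3). The libraries of both lines are apart for TAP1, TAP2 and PSMB9 and overlap for the other 6 genes.

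TAP1 and PSMB9 lie side by side on chromosome 6 and are read in opposite directions, with 487 bases between their annotated starts. The 250 bases before each start are shown because these genes fell together, and those of TAP2 and B2M, which were not called, for comparison. They are RefSeq sequences of GRCh38.p14, given 5′ to 3′ on the strand of the gene. The deposited values carry no coordinates, and the submitters name hg19. Capitals mark matches on either strand to 5 motifs: the interferon response element core (TTTC and TTTC with 2 bases between them), the gamma-activated site TTCNNNGAA, the CCAAT box, the GC box GGGCGG and the NF-κB consensus. RefSeq lists another TAP1 start further inside the gene, whose window held a gamma-activated site and a GC box and is not shown.
TAP1 (chr6:32853705-32853954, minus strand): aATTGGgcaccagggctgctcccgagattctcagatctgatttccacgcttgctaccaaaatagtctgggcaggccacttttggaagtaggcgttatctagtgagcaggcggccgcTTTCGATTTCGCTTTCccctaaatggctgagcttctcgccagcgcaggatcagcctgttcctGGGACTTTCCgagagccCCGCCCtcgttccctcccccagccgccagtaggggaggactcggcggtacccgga
PSMB9 (chr6:32853942-32854191, plus strand): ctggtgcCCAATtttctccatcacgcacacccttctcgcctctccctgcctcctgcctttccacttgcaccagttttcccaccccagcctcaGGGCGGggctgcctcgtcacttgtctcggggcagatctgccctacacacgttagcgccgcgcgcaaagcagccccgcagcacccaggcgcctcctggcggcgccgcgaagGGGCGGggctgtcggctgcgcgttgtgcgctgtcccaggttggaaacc
TAP2 (chr6:32838740-32838989, minus strand): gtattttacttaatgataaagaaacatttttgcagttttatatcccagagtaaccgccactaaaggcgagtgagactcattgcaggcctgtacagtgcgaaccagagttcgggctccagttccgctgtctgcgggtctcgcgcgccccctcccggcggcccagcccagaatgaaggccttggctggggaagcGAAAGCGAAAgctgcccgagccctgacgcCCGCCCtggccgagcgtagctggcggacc
B2M (chr15:44711267-44711516, plus strand): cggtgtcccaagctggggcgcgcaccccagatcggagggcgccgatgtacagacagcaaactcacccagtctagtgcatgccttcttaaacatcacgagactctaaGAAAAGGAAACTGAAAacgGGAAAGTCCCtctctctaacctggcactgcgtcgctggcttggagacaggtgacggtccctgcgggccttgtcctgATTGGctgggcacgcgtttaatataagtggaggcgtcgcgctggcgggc

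The windows of TAP1 and PSMB9 share 13 bases, which hold 1 CCAAT box that each window reads from its own side. The TAP1 window held 2 overlapping interferon response element cores between 134 and 119 bases before the start, and an NF-κB match, GGGACTTTCC, from 72 to 63 bases before it. The PSMB9 window held 2 GC boxes and no match to the interferon, gamma-activated or NF-κB letters. The interferon cores and NF-κB match of the TAP1 window lie between both starts, so also before PSMB9, but beyond its 250 bases. The TAP2 window held 1 interferon core, GAAAGCGAAA, from 58 to 49 bases before the start, and 1 GC box. B2M held 2 overlapping interferon cores and an NF-κB match, all between 144 and 116 bases before the start. The interferon core stood before the start of TAP1, which was called lower, and of TAP2, B2M and HLA-F, whose window is not shown. TAP2 passed the adjusted p as higher at a fold below 1.5, B2M did not pass, and HLA-F was at the floor. Whether these letters bear on the changes was not tested. Of all 35114 windows of this length, 3.02% held the interferon core, 6.57% the gamma-activated site, 32.0% a CCAAT box, 42.6% a GC box and 5.21% the NF-κB consensus. These matches are letters in a window and not shown sites of binding. No promoter sequence is given for HLA-E.

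TAP1 forms the peptide channel with TAP2. Its level was 126, 124 and 131 RPM in HuCCT1/CD90- against 77.5, 69.9 and 71.8 RPM in HuCCT1/CD90+, from 600 to 1351 reads a library. All libraries of HuCCT1/CD90+ were below all of HuCCT1/CD90-, and the gap between the lines was far wider than the spread within either. The means were 127 ± 3.82 and 73.1 ± 3.97 RPM (SD, n = 3 each), and limma gave a log2 fold change of -0.79 ± 0.05 (standard error) with an adjusted p of 0.0018. The fall passed the adjusted p in each alternative run (0.025 at most, with the replicate number as a block), but was under 1.5-fold once the change of neighbouring genes was subtracted, as given below.

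TAP2 had 101, 120 and 100.4 RPM in HuCCT1/CD90- and 157, 157 and 150.1 RPM in HuCCT1/CD90+. Here all HuCCT1/CD90+ libraries were above all HuCCT1/CD90- libraries, the opposite order to TAP1. The means were 107 ± 10.9 and 155 ± 3.999 RPM (SD, n = 3 each), and the log2 fold change of 0.53 (95% interval 0.32 to 0.74, adjusted p = 0.017 by limma) was short of the minimum fold. With the replicate block the adjusted p of TAP2 was 0.053. It was 0.057 or 0.058 without HuCCT1/CD90- replicate 1 or 3, and 0.067, 0.067 and 0.062 without HuCCT1/CD90+ replicate 1, 2 or 3. Without HuCCT1/CD90- replicate 2, TAP2 was called (log2 fold change 0.61, adjusted p = 0.0046).

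PSMB9, also known as LMP2, takes the place of the constitutive subunit PSMB6 in the immunoproteasome. It had 85.2, 80.2 and 64.3 RPM in HuCCT1/CD90- and 41.8, 42.5 and 41.9 RPM in HuCCT1/CD90+. The HuCCT1/CD90+ libraries were almost equal and below every HuCCT1/CD90- library, of which replicate 3 was the lowest. The means were 76.6 ± 10.9 and 42.1 ± 0.380 RPM (SD, n = 3 each), with -0.84 ± 0.12 (standard error) as the log2 fold change and an adjusted p of 0.014 by limma. Its call was lost with the replicate block (adjusted p = 0.058). It was also lost without HuCCT1/CD90- replicate 2 (0.053) and without HuCCT1/CD90+ replicate 1, 2 or 3 (0.056, 0.055 and 0.060), with log2 fold changes from -0.85 to -0.80.

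PSMB8, or LMP7, takes the place of PSMB5 and lies between TAP2 and TAP1. It had 14.1, 22.7 and 23.5 RPM in HuCCT1/CD90- and 11.6, 15.1 and 19.3 RPM in HuCCT1/CD90+, from 108 to 242 reads. The libraries overlapped, and replicate 1 was the lowest of each line. Each HuCCT1/CD90+ library was below the HuCCT1/CD90- library of the same number (adjusted p = 0.13 by limma with the replicate block). The log2 fold change was -0.36 with a 95% interval from -1.12 to 0.40 (adjusted p = 0.53, limma), so that a fall as large as that of PSMB9 lay inside the interval.

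**Figure D2:**
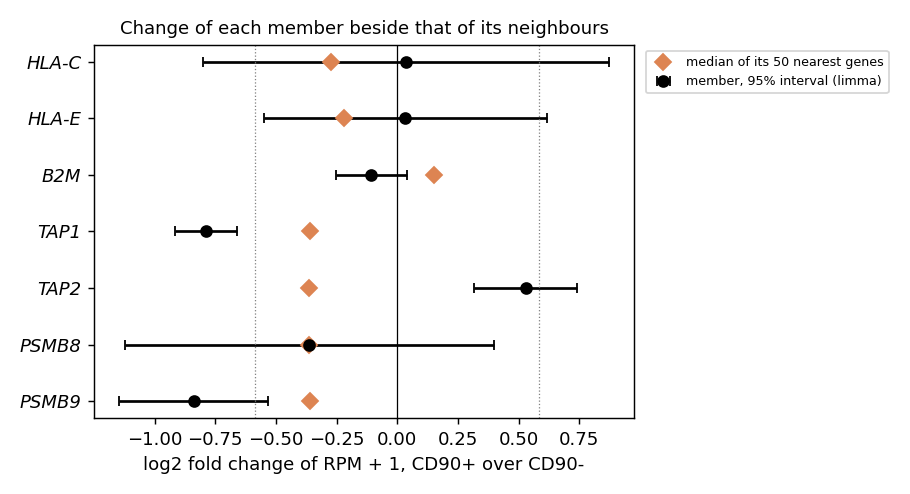
Log2 fold change of the 7 members above the detection floor (black points, with 95% intervals from limma) and the median change among the 50 expressed genes nearest to it on its chromosome (orange diamonds). Dotted lines mark a fold of 1.5. TAP1 and PSMB9 lie to the left of their neighbours, TAP2 to the right of them, and PSMB8 on the same value.

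The heavy and light chains gave less to compare. B2M, the light chain of every class I molecule, had 790.3, 742 and 817 RPM in HuCCT1/CD90- and 755, 688 and 739 RPM in HuCCT1/CD90+. The libraries overlapped, and the log2 fold change was -0.11 (95% interval -0.25 to 0.04, adjusted p = 0.29, limma), an interval that does not reach a change of 1.5-fold either way. For B2M too, each HuCCT1/CD90+ library was below the HuCCT1/CD90- library of the same number (adjusted p = 0.0996 with the block). HLA-E had 298, 465 and 355 RPM in HuCCT1/CD90- and 328, 449 and 358 RPM in HuCCT1/CD90+. Replicate 2 was the highest of both lines, and the log2 fold change was 0.03 (95% interval -0.55 to 0.62, adjusted p = 1.0, limma).

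HLA-B had 0 reads in 5 libraries and 1 read in HuCCT1/CD90+ replicate 2. HLA-F had 2, 1 and 0 reads in HuCCT1/CD90- and 0, 1 and 3 reads in HuCCT1/CD90+. HLA-C had 2, 7 and 3 reads in HuCCT1/CD90- and 0, 4 and 9 reads in HuCCT1/CD90+, at most 0.977 RPM, with a log2 fold change of 0.04 (95% interval -0.80 to 0.87). No fold is given for HLA-B and HLA-F, which were at the floor in both lines. A heavy chain gene varies greatly between people, and whether the amplicons of HLA-B, HLA-C and HLA-F match the alleles of this line was not tested. The near absence of their reads is therefore not shown to be an absence of their transcripts.

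Genes of this family resemble each other, and where their amplicons lie is not given. In the longest GENCODE 29 coding transcript of each gene, windows of 50 bases that also occur in transcripts of another gene made up 2.54% of HLA-B, 6.71% of HLA-C, 5.13% of HLA-E and 1.70% of HLA-F. The share was 1.07% for TAP1 and 12.1% for PSMB9, the latter shared with the antisense gene PSMB8-AS1. It was 35.8% for TAP2, shared with AL669918.1 and TAP1, and 0 for B2M and PSMB8. The values of TAP2, PSMB9 and the heavy chains are uncertain to the extent that their amplicons lie in such windows.

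TAP2, PSMB8, TAP1 and PSMB9 are neighbours in this order within the MHC, and expression along chromosome 6 was lower in HuCCT1/CD90+. Of the 454 chromosome 6 genes whose mean reached 10 RPM, 72.7% were lower, with a median log2 fold change of -0.30. Over all 8794 genes at that level, 49.0% were lower, and the median was 0.01. The median over the 50 nearest such genes was -0.36 for each of the 4 cluster genes, -0.22 for HLA-E and 0.15 for B2M, which lies on chromosome 15. With this median subtracted, the log2 fold change of TAP1 was -0.43 (adjusted p = 0.0082), that of PSMB9 -0.49 (adjusted p = 0.060) and that of PSMB8 -0.02. TAP2 was then at 0.89 and called higher (adjusted p = 0.0047). In that fit 0 members were called lower, beside 6.69% of the genes tested, and 1 was called higher, beside 6.44%, and B2M moved to -0.26 (adjusted p = 0.045). The part of the chromosome in these results was not tested further.

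**Figure D3:**
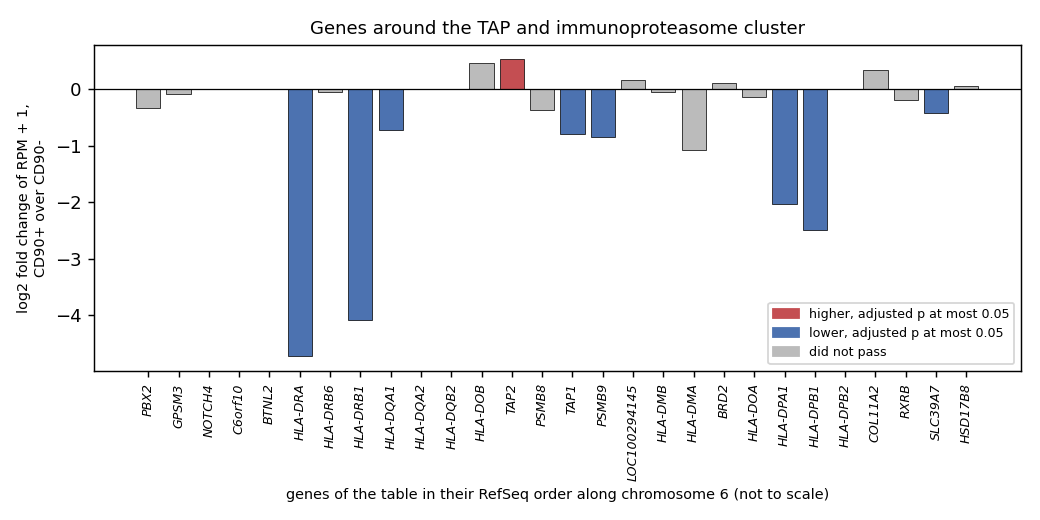
Log2 fold change of genes on either side of TAP2, PSMB8, TAP1 and PSMB9, in their order along chromosome 6 and not to scale. Colour marks an adjusted p of at most 0.05 (limma). TAP2 is the only coloured bar above 0, and the longest bars below it are HLA-DRA and HLA-DRB1.

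Ratios within a library do not depend on how libraries are scaled, and the neighbouring genes TAP1 and TAP2 share their surroundings. The pairs were chosen after the values were seen, and 11 ratios were computed. TAP1/TAP2 was 1.24, 1.03 and 1.31 in HuCCT1/CD90- and 0.495, 0.444 and 0.479 in HuCCT1/CD90+. The ratio was lower in all 3 HuCCT1/CD90+ libraries, with a mean 2.51-fold lower (exact permutation test, two-sided, p = 0.10, the smallest that 3 against 3 libraries can give, or 0.22 adjusted over the 11 ratios). The ratio PSMB9/TAP1 was 0.676, 0.649 and 0.491 in HuCCT1/CD90- and 0.539, 0.608 and 0.583 in HuCCT1/CD90+, and these ranges overlapped (exact permutation p = 0.70). PSMB8/TAP2 was 1.89-fold lower in HuCCT1/CD90+ without overlap (exact permutation p = 0.10).

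Each immunoproteasome subunit was also set against the constitutive subunit it replaces. PSMB9/PSMB6 was 0.285, 0.292 and 0.231 in HuCCT1/CD90- and 0.124, 0.126 and 0.135 in HuCCT1/CD90+, 2.09-fold lower with no overlap (exact permutation p = 0.10, adjusted p = 0.22). PSMB8/PSMB5 was 0.131, 0.287 and 0.276 against 0.104, 0.179 and 0.219, and its libraries overlapped (exact permutation p = 0.50), although each HuCCT1/CD90+ library was below the HuCCT1/CD90- library of the same number. PSMB9/PSMB8 was likewise lower in all 3 same-numbered pairs, at 6.03, 3.54 and 2.74 against 3.61, 2.81 and 2.17, with overlap between the lines (exact permutation p = 0.50). PSMB10/PSMB7 lay between 0.0479 and 0.0625 in all libraries (exact permutation p = 0.60).

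**Figure D4:**
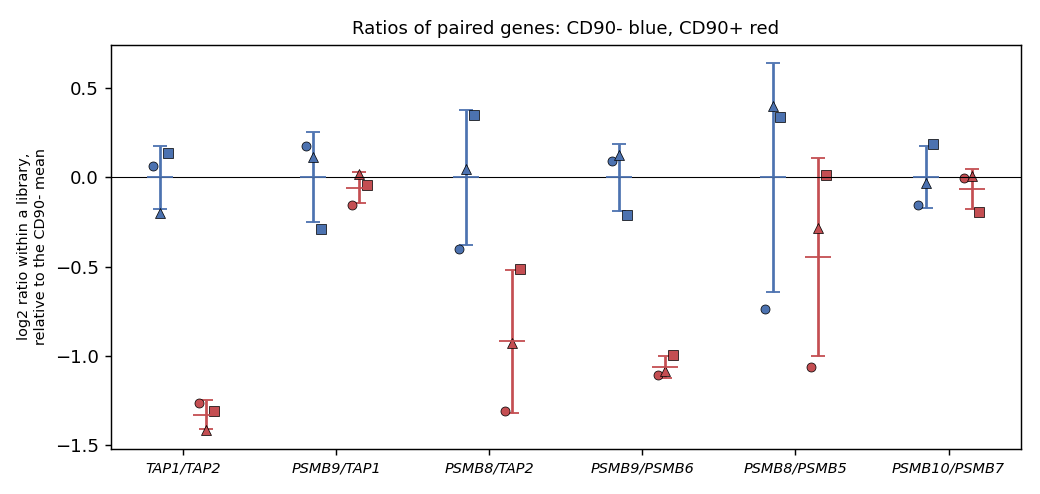
Log2 ratio of paired genes within each library, relative to the mean of the HuCCT1/CD90- libraries (circles, triangles and squares for replicates 1, 2 and 3, with mean and SD, n = 3). HuCCT1/CD90+ lies apart from HuCCT1/CD90- for TAP1/TAP2, PSMB8/TAP2 and PSMB9/PSMB6, and overlaps it for PSMB9/TAP1, PSMB8/PSMB5 and PSMB10/PSMB7.

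Other genes that cut peptides or load them on class I molecules gave no call. Of 13 such genes, 0 were called in either direction with limma, beside 15.1% of all genes. At an unadjusted p of at most 0.05, 2 were higher, beside 15.3% of all genes. edgeR and DESeq2 each called 2 higher, beside 17.5% and 15.1% of the genes they tested. The chaperone calreticulin (CALR) had 1782 ± 54.0 RPM in HuCCT1/CD90- against 2319 ± 305 RPM in HuCCT1/CD90+ (SD, n = 3 each, adjusted p = 0.082, limma). PDIA3, its partner in the loading complex, had 693 ± 98.5 and 947 ± 88.8 RPM (adjusted p = 0.089, or 0.035 with the block, at a fold below 1.5). Calnexin (CANX) and the proteasome activator subunit PSME2 were the 2 genes that edgeR and DESeq2 called, with adjusted p-values of 0.0041 and 0.022 from edgeR and of 0.21 and 0.17 from limma. The median log2 fold change of the 11 genes above the floor was 0.10. PSMB10, the third interferon-induced proteasome subunit, had 25.9 ± 2.11 and 22.8 ± 2.21 RPM (adjusted p = 0.33), and the peptide trimming enzyme ERAP2 had 88.9 ± 6.15 and 88.0 ± 4.05 RPM.

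The constitutive core of the proteasome was measured in 14 genes, of which 1 was called higher (PSMA2, log2 fold change 0.68, adjusted p = 0.043, limma) and 0 lower, beside 7.59% and 7.49% of all genes, with a median log2 fold change of 0.05. PSMA2 lost its call with the replicate block (adjusted p = 0.065), with the neighbours subtracted (log2 fold change 0.28, adjusted p = 0.31) and without any 1 library (0.076 to 0.12). At an unadjusted p of at most 0.05 and any fold, 4 were higher and 3 lower, beside 15.3% and 15.9% of all genes. edgeR and DESeq2 each called 2 higher, beside 17.5% and 15.1%, and 0 lower, beside 17.3% and 14.3%. PSMB6 had 284 ± 12.9 RPM in HuCCT1/CD90- against 328 ± 14.5 RPM in HuCCT1/CD90+ (adjusted p = 0.057). By the adjusted p alone 2 were higher, beside 9.41% of all genes, and 2 lower, beside 9.52%. The higher ones were PSMA2 and PSMA3 (log2 fold change 0.19, adjusted p = 0.0090, or 0.052 with the block). The lower ones were PSMB1 (-0.48, adjusted p = 0.0065, or 0.056 with the block) and PSMB4 (-0.29, adjusted p = 0.032, or 0.016 with the block).

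Regulators of class I transcription and interferon receptors made up 23 genes, of which 5 were called lower and 0 higher with limma, beside 7.49% and 7.59% of all genes, with a median log2 fold change of 0.05. At an unadjusted p of at most 0.05, 3 were higher and 6 lower, beside 15.3% and 15.9% of all genes. edgeR and DESeq2 each called 1 higher, beside 17.5% and 15.1%, and 5 lower, beside 17.3% and 14.3%. NLRC5, the class I transactivator, had 68.4, 92.3 and 81.3 RPM in HuCCT1/CD90- and 52.5, 70.1 and 60.8 RPM in HuCCT1/CD90+. These libraries overlapped, and the log2 fold change of -0.39 did not pass (adjusted p = 0.20, limma). With the replicate block its adjusted p was 0.016, at a fold below 1.5. IFNGR1, the ligand-binding chain of the interferon-γ receptor, was at 51.7 ± 3.78 and 18.8 ± 1.78 RPM (SD, n = 3 each) and fell by 1.41 on the log2 scale (adjusted p = 0.0019), and its adjusted p stayed at or under 0.027 in the alternatives. IFNGR2, the other chain, had 11.6 ± 0.496 and 13.3 ± 0.961 RPM (adjusted p = 0.13). IRF1, a transcription factor that interferon-γ induces, did not pass (log2 fold change -0.37, adjusted p = 0.34). With the block its adjusted p was 0.043, also at a fold below 1.5. Also called lower were CIITA, RFXAP, NFYC and TYK2. RFXAP and NFYC belong to the complexes that bind MHC promoters. They had log2 fold changes of -1.22 and -0.62, and RFXAP lost its call with the replicate block (adjusted p = 0.056). NFYC fell below 1.5-fold without HuCCT1/CD90+ replicate 1 (-0.58) and with the neighbours subtracted (-0.50). TYK2, a kinase of the type I interferon receptor, lost its call with the block (adjusted p = 0.14), with the neighbours subtracted (0.064), with trend and robust eBayes (0.052) and without any 1 library but HuCCT1/CD90- replicate 1 (0.091 to 0.14).

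Many MHC class II genes lie among the class I processing genes on chromosome 6. The class II list also held the invariant chain CD74 and the protease CTSS, whose genes lie outside the MHC. Of 11 genes measured, 6 were called lower and 1 higher, beside 7.49% and 7.59% of all genes, and the median log2 fold change was -1.08 (-1.15 for the 9 above the floor). With the block 4 were lower, beside 4.86% of all genes, and 0 higher, beside 5.24%. The calls of HLA-DQA1, CD74 and CTSS were lost with it (adjusted p = 0.070, 0.11 and 0.063). CIITA, the class II transactivator, had 12.5, 28.4 and 20.0 RPM in HuCCT1/CD90- and 0.214, 1.40 and 1.19 RPM in HuCCT1/CD90+ (log2 fold change -3.45, adjusted p = 0.010, limma). HLA-DRA had 30.3, 22.4 and 33.1 RPM in HuCCT1/CD90- and at most 2 reads in any HuCCT1/CD90+ library, at least 81.8-fold lower. HLA-DRB1 was at least 49.4-fold lower, and HLA-DPA1 went from 18.0 ± 3.13 to 3.61 ± 0.421 RPM (adjusted p = 0.0028). The other genes lower were HLA-DPB1, HLA-DQA1 and CD74, and the gene higher was CTSS, which trims the invariant chain. Without 1 library, CD74 was not called in 5 of 6 cases (adjusted p = 0.075 to 0.13), being called without HuCCT1/CD90- replicate 2, and HLA-DQA1 was not called without HuCCT1/CD90+ replicate 1 or 3 (0.057 and 0.061).

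Class I-like molecules and ligands of natural killer cell receptors were measured in 14 genes. Called higher were RAET1L and AZGP1, and called lower was PROCR, 2 and 1 of 14 beside 7.59% and 7.49% of all genes, with a median log2 fold change of 0.14 over the 12 above the floor. RAET1L, an NKG2D ligand, rose from 0.534 ± 0.0940 to 3.02 ± 0.305 RPM. AZGP1 was at least 8.09-fold higher and was not called without HuCCT1/CD90- replicate 3 or HuCCT1/CD90+ replicate 3 (adjusted p = 0.051 and 0.054). PROCR was not called without HuCCT1/CD90- replicate 3 (0.074) or without HuCCT1/CD90+ replicate 1, 2 or 3 (0.065, 0.063 and 0.071). MICB, which lies in the MHC beside the classical heavy chains and is also an NKG2D ligand, had 55.4 ± 8.10 and 88.8 ± 13.4 RPM (log2 fold change 0.67, adjusted p = 0.057, limma), and edgeR and DESeq2 called it higher. MR1, which presents metabolites to T cells, had 26.1 ± 2.09 and 17.3 ± 1.68 RPM, an adjusted p of 0.023 (0.071 with the block) at a fold below 1.5. MR1 was called lower by edgeR and DESeq2 (adjusted p = 0.011 and 0.0099), and its log2 fold change was -0.20 with the neighbours subtracted (adjusted p = 0.28).

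Of 15 interferon-stimulated genes, 4 were called higher and 2 lower, beside 7.59% and 7.49% of all genes, with a median log2 fold change of 0.30 over the 14 above the floor. Those higher were IFIT1, IFIT2, IFIT3 and MX1. Those lower were GBP1 and GBP2, guanylate-binding proteins that interferon-γ induces. GBP2 had 78.1 ± 16.5 and 22.97 ± 0.306 RPM, a change of -1.70 on the log2 scale (adjusted p = 0.0057). IFIT1 had 31.1 ± 5.31 and 223 ± 4.19 RPM, a change of 2.81 (adjusted p = 0.00089). With the block, 4 were called higher, beside 5.24% of all genes, and 1 lower, beside 4.86%. MX1 and GBP1 were then no longer called (adjusted p = 0.080 and 0.065), and IRF7, a transcription factor of the interferon response, was. IRF7 had 11.6, 26.1 and 14.4 RPM in HuCCT1/CD90- against 31.6, 61.5 and 39.4 RPM in HuCCT1/CD90+, with a log2 fold change of 1.33 and an adjusted p of 0.10, or 0.019 with the block. Without 1 library, GBP1 lost its call for replicate 3 of either line (0.052 and 0.057) and MX1 for each library but HuCCT1/CD90+ replicates 1 and 3 (0.066 to 0.072).

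**Figure D5:**
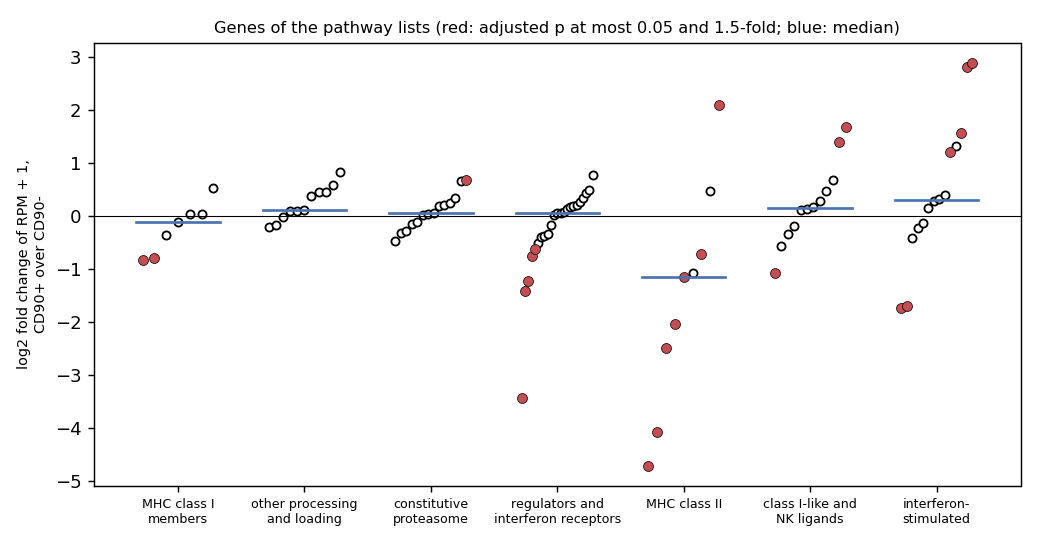
Log2 fold change of the genes above the detection floor in each list, with called genes in red and the list's median as a blue line. The members run from -0.84 for PSMB9 to 0.53 for TAP2, and the MHC class II list reaches -4.72 for HLA-DRA.

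The genes whose profile over the 6 libraries was nearest to the mean profile of the 9 members, by Euclidean distance on centred log2(RPM + 1) values among genes whose mean reached 10 RPM, were PTRF, MOGS, RPL13A, ZBTB4 and NFIX. Their distances were 0.0918 to 0.115, and their log2 fold changes ran from -0.21 for NFIX to -0.09 for MOGS. None of these 5 genes was called (limma, adjusted p of 0.10 or more), and 1, NFIX, had an unadjusted p under 0.05. The mean profile averages genes that went in opposite directions.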

How the data were processed

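Total RNA of 3 HuCCT1/CD90+ and 3 HuCCT1/CD90- libraries was reverse-transcribed, amplified with the Ion AmpliSeq Transcriptome panel and run on the Ion GeneStudio S5 Prime. Amplicon reads were counted by the authors with ampliSeqRNA, and RPM were deposited for 20811 genes, with no filter on low values. The submitters' processing notes name hg19 and Transcriptome Analysis Console. Amplicon positions and the counting strand are not given in the sources used here.

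Low values were whole multiples of what 1 read is worth, and whole reads were recovered for 100% of values (within 0.1 read). As molecules were not tagged, floors take in counting error alone. No library was a copy of another (chi-square test of reads).

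Differences were tested with limma 3.58.1 in R 4.3.3 (lmFit, eBayes, default settings, no block) on log2(RPM + 1), a scale that understates changes of weakly expressed genes, with Benjamini-Hochberg adjustment over all genes. An adjusted p given without its tool is limma's. edgeR 4.0.16 (filterByExpr, TMM) and DESeq2 1.42.0 were run on the recovered reads. These steps were tested on simulated data. The other alternatives were offsets of 0.1 and 5 RPM, a mean of at least 1 RPM, quantile normalization, median centring, trend and robust eBayes, the replicate block, each library left out, and subtraction of the median change among the 50 nearest genes whose mean reached 10 RPM (RefSeq order, 19883 genes placed). Ratios were compared with exact permutation tests in scipy 1.17.1.

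Libraries with the same number deviated together from their group means, with r = 0.21, 0.32 and 0.18. On this evidence only, the numbers were treated as pairs in the replicate block. The reported fit and the permutation tests did not pair the libraries. Blocked values are given where they change the call of a member or of a gene of the pathway lists.

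The members, the gene lists and the rule for named genes (members, list genes that were called or stand in a stated range, and the 5 nearest profiles) were chosen with earlier results of these data known. HLA-DQB1, listed among class II genes, did not match a gene of the table. Values of 2 listed genes are not reported here.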

Additional observations from a re-analysis of the deposited data

How the results depend on the processing

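The directions of TAP1, TAP2, PSMB8, PSMB9 and B2M held in all 16 alternatives, with log2 fold changes from -0.83 to -0.43 for TAP1, 0.48 to 0.89 for TAP2, -0.96 to -0.48 for PSMB9, -0.59 to -0.02 for PSMB8 and -0.26 to -0.07 for B2M. The members called lower were 1 with the replicate block and 0 with the neighbours subtracted, where 1 was higher. With 1 library left out they were 1 to 2 lower and 0 to 1 higher. The median of the members was -0.23 over genes whose mean reached 1 RPM and -0.25 with edgeR, where HLA-B, HLA-C and HLA-F drop out for their low level, and -0.119 to 0.0792 with 1 library left out. All genes called were 1868 to 2414 with 1 library left out, 2102 with the replicate block and 3138 in the reported fit, and 4200 and 4236 with edgeR and DESeq2. Signs turned only for changes that were not called. HLA-C went to -0.22 with an offset of 0.1 RPM, and to -0.08, -0.02 and -0.20 without HuCCT1/CD90- replicate 1, HuCCT1/CD90- replicate 3 and HuCCT1/CD90+ replicate 3, with a range of -0.199 to 0.292 with 1 library left out. HLA-E went to -0.00086 with quantile normalization, and to -0.12 and -0.10 without HuCCT1/CD90- replicate 1 and HuCCT1/CD90+ replicate 2, with a range of -0.116 to 0.205. With the neighbours subtracted PSMB10 went to 0.0855, PSMB4 to 0.234, PSMA3 to -0.011 and NLRC5 to 0.00435. With an offset of 5 RPM, HLA-DQA1, CD74, RAET1L and AZGP1 lost their calls (-0.18, -0.74, 0.54 and 0.57). The cause was not tested. The reads limit what can be said of HLA-B, HLA-C and HLA-F.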
